A study of Homo sapiens with 8 samples.

Results

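The genes described here are those with ribosome footprints in HAP1 cells 30 min after RNA-protein crosslinking, compared between RNF14 knockout and wild type. A gene was included when its mean RPKM (reads scaled to transcript length and library depth) was 1 or more over the 4 libraries at 30 min. This kept 11931 of the 19580 genes in the table. The mean was 1.002 RPKM for the last gene inside the limit and 0.999 RPKM for the first one outside it. Of the 7649 genes left out, 4721 had no read in any of the 4 libraries. HAP1 is an adherent, near-haploid human cell line that derives from a chronic myeloid leukaemia line.

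The compared groups were wild type at 30 min and RNF14 knockout at 30 min, each with 2 biological replicates. Both groups, and the wild-type and knockout cells harvested at 0 min, had been given 5 uM 4-thiouridine (4SU) for 18 h and then 6 kJ/m2 of UVA. Cells without 4SU or without UVA were not analysed here, so no comparison below separates the effect of the treatment itself. The labels do not say how many knockout clones were used, so a difference between genotypes cannot be told apart from a difference between clones.

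RNF14 is a RING-in-between-RING E3 ubiquitin ligase. It works with GCN1, a scaffold that binds collided ribosomes, and with the ligase RNF25 to ubiquitylate proteins trapped on or near a stalled ribosome. 4SU is built into new RNA and forms covalent bonds with bound proteins under UVA, and a protein bonded to an mRNA blocks the ribosomes that translate it. Ribosome profiling sequences the mRNA pieces that ribosomes protect, so the reads of a gene depend on how much of its mRNA is present and on how many ribosomes sit on it. These contributions cannot be told apart here, nor can fewer cells and less RNA per cell. The question was which genes carried more or fewer footprints without RNF14 after recovery, and whether the same genes already differed at 0 min.

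The files pair the Ensembl gene IDs with no names, and 0 of 19580 IDs could be matched to the gene table used here. RNF14 itself, marker genes and pathways were therefore not examined, and the knockout was not checked in these libraries. IDs are given for 4 genes and the others are called by the length of their listed transcript. A length identifies a gene only within this text, because other genes of the table can share it. The 4 IDs were chosen after the values had been seen.

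At 30 min the libraries held few reads. Wild-type replicates had 717828 and 516410 reads and knockout replicates 323946 and 459227, so both knockout libraries were shallower than both wild-type libraries. The median gene had 24 and 18 reads in the wild-type libraries and 11 and 16 in the knockout libraries. Across the 11931 genes, which are not independent replicates, log2 values correlated with Pearson's r = 0.944 between the wild-type replicates and r = 0.895 between the knockout replicates. Knockout replicate 2 correlated better with wild type replicate 1 (r = 0.927) than with its own replicate. Principal components were computed over all 8 libraries. On the first, with 26.7% of the variance, the knockout libraries at 30 min lay at 60.1 and 24.1 and the wild-type ones at 5.29 and 1.46. On the second, with 20.3%, knockout 30 min replicate 1 lay at 37.8 and its replicate at -30.1. There the wild-type libraries lay at -25.2 and -28.7 at 30 min and at 27.4 and 19.7 at 0 min. The column of knockout 30 min replicate 1 also carries a suffix that no label explains. Calls lost without this library are given with the called genes below, and the part of depth in the differences was not tested beyond thinning to equal reads.

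Few genes passed the threshold between the genotypes at 30 min, which does not show that the others were equal. Of 11931 tested genes, 15 (0.126%) passed an adjusted p of 0.05 (limma-trend on log2(RPKM + 1), two-sided, Benjamini-Hochberg). In the knockout 10 genes (0.0838%) were higher and 5 (0.0419%) were lower. An unadjusted p below 0.05 was reached by 1321 genes, or 11.1%. The median log2 difference over all genes, knockout minus wild type, was 0.02, and 90.9% of genes lay within 1 of 0 on the log2 scale. The number of calls varied with the libraries used. Leaving out a library at 30 min leaves 1 in its group, which is then assumed to vary like the other groups, and this holds for every such value below. The number was 5, with 5 higher and 0 lower, without wild type 30 min replicate 2, and 108, with 59 higher and 49 lower, without knockout 30 min replicate 2. Leaving out replicate 1 of the knockout at 30 min gave 14 calls, and leaving out replicate 1 of wild type at 30 min gave 13. In either case 4 of these were among the 15. Run on whole reads recovered from the RPKM steps, voom (limma's model for counts) called 22 genes (0.184%), 21 higher and 1 lower, and 8 of them were among the 15. Without a filter on low values 2 of the 15 calls remained, after thinning all libraries to 323946 reads 3 remained, and in a fit of the 4 libraries at 30 min alone 5 remained.

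The 15 genes fell into a well-read and a thinly read set, as the plot of the genotype difference against reads shows. In 9 of them the 4 libraries at 30 min held 20 or more reads, up to 1624, with 7 higher and 2 lower in the knockout. The other 6, with 3 higher and 3 lower, had between 4 and 12 reads in all. The read limit of 20 had been set for choosing further genes by p and was applied to the called genes after their values were seen.

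**Figure D1:**
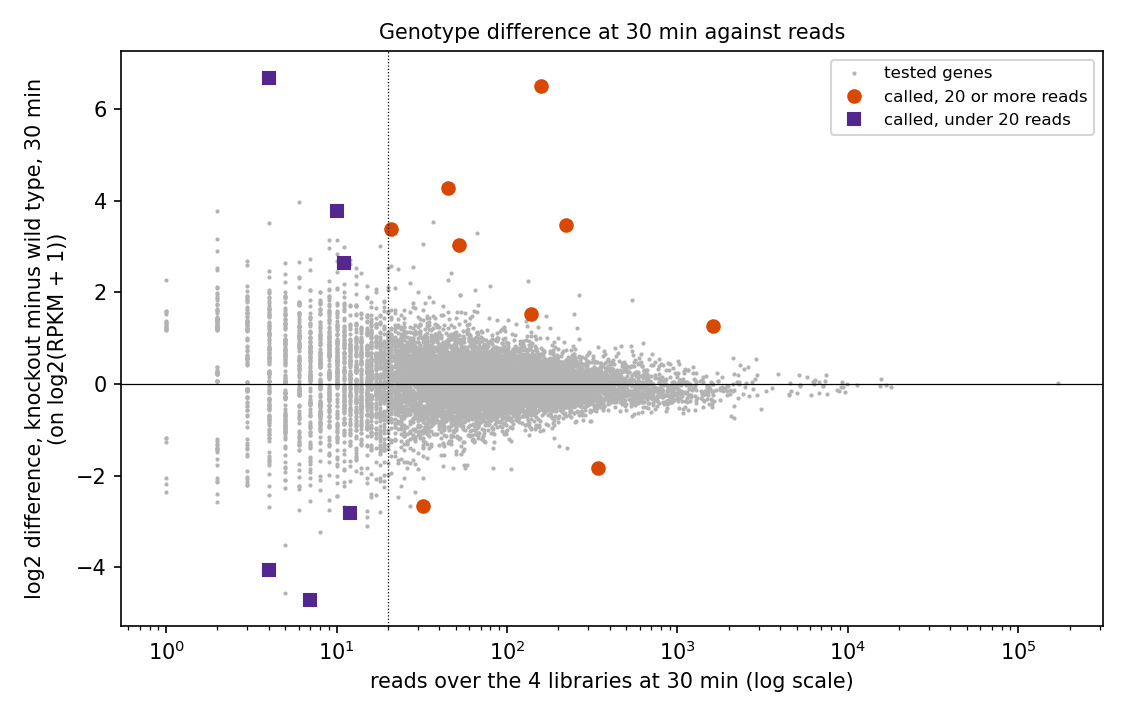
Each point is 1 of 11931 genes, with the reads over the 4 libraries at 30 min on a log axis and the log2 difference between knockout and wild type, on log2(RPKM + 1), on the other axis. Circles mark the 9 called genes with 20 or more reads and squares the 6 called genes with fewer, and the dotted line marks 20 reads. The cloud narrows from an SD of 1.19 for genes under 10 reads to 0.28 for genes with 500 or more.

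The call that held under every one of 21 alternative settings was ENSG00000204262, with a listed transcript of 6829 nt. It stood at 2.24 and 2.84 RPKM in the wild-type libraries at 30 min and at 39.8 and 36.0 RPKM in the knockout libraries. The groups were far apart compared with the distance between replicates. These values came from 11 and 10 reads in wild type and 88 and 113 in knockout, a share of reads 15.1 times as large, with an exact 95% binomial interval (Clopper-Pearson) from 9.60 to 24.9 that covers counting error only. The fitted log2 difference was 3.46 (SE 0.28, limma adjusted p = 0.000600, range over the alternatives 1.11e-08 to 0.0413).

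ENSG00000185222, of 1028 nt, had 0 and 2 reads in wild type at 30 min, or 0 and 3.77 RPKM, and 73 and 83 reads in the knockout, or 219 and 176 RPKM. It was nearly unread in wild type and among the clearly read genes in the knockout. Its share of reads was 123 times as large in the knockout, with a counting interval from 33.5 to 1020. The log2 difference was 6.50 (SE 0.61, limma adjusted p = 0.00195). The call was lost with a pseudocount of 0.1, without a filter and without knockout 30 min replicate 1, where the adjusted p rose to at most 0.132.

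The remaining well-read genes that were higher in the knockout spanned a wide range of levels. A gene of 434 nt stood at 3.21 and 8.92 RPKM in wild type and at 121 and 125 RPKM in the knockout. Its log2 difference was 4.26 (SE 0.34, limma adjusted p = 0.000600), and the call was lost without a filter, after thinning to equal depth and without knockout 30 min replicate 1. A gene of 2591 nt stood at 1.61 and 2.24 RPKM in wild type and at 23.8 and 21.9 RPKM in the knockout. The replicates of both genes lay close together in the knockout, and neither gene's groups overlapped. The 2591 nt gene differed by 3.03 on the log2 scale (SE 0.33, limma adjusted p = 0.00605). That call was lost without wild type 30 min replicate 1 or 2 or knockout 30 min replicate 1. It was also lost without a filter, after thinning to equal depth and in a fit of the libraries at 30 min alone. In these fits on all libraries of both groups the limma adjusted p ran from 0.0536 to 0.0558.

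A gene of 2644 nt was listed at 0 in both wild-type libraries at 30 min and had 6 and 15 reads, or 7.01 and 12.4 RPKM, in the knockout. Set against a floor of 3 reads over the wild-type group, its share of reads was at least 11-fold higher. That floor leaves out the counting error of the knockout reads, and the exact interval of the ratio began lower, at 8.21. The limma adjusted p was 0.0219 and the call held in 3 of the 8 fits that left out 1 library, those without wild type 0 min replicate 2 or either knockout library at 30 min.

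The most read of the 15 was a gene of 2278 nt, with 358 and 286 reads in wild type and 421 and 559 in the knockout. In RPKM these were 219 and 243 against 571 and 534. Here the difference was modest in size but large against the replicates. The share of reads was 2.40 times as large in the knockout, with a counting interval from 2.17 to 2.65. The log2 difference was 1.26 (SE 0.15, limma adjusted p = 0.00999). This call was lost without wild type 30 min replicate 1 or 2 or knockout 30 min replicate 1. It was also lost without a filter, without a trend in the prior and in a fit of the libraries at 30 min alone.

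A gene of 1943 nt stood at 22.2 and 17.9 RPKM in wild type and at 63.5 and 56.0 RPKM in the knockout. Its log2 difference of 1.53 (SE 0.23, limma adjusted p = 0.0344) kept its sign in every setting tried, from 1.37 to 1.68. The call was lost in each of the 8 fits that left out 1 library, with adjusted p up to 0.302.

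**Figure D2:**
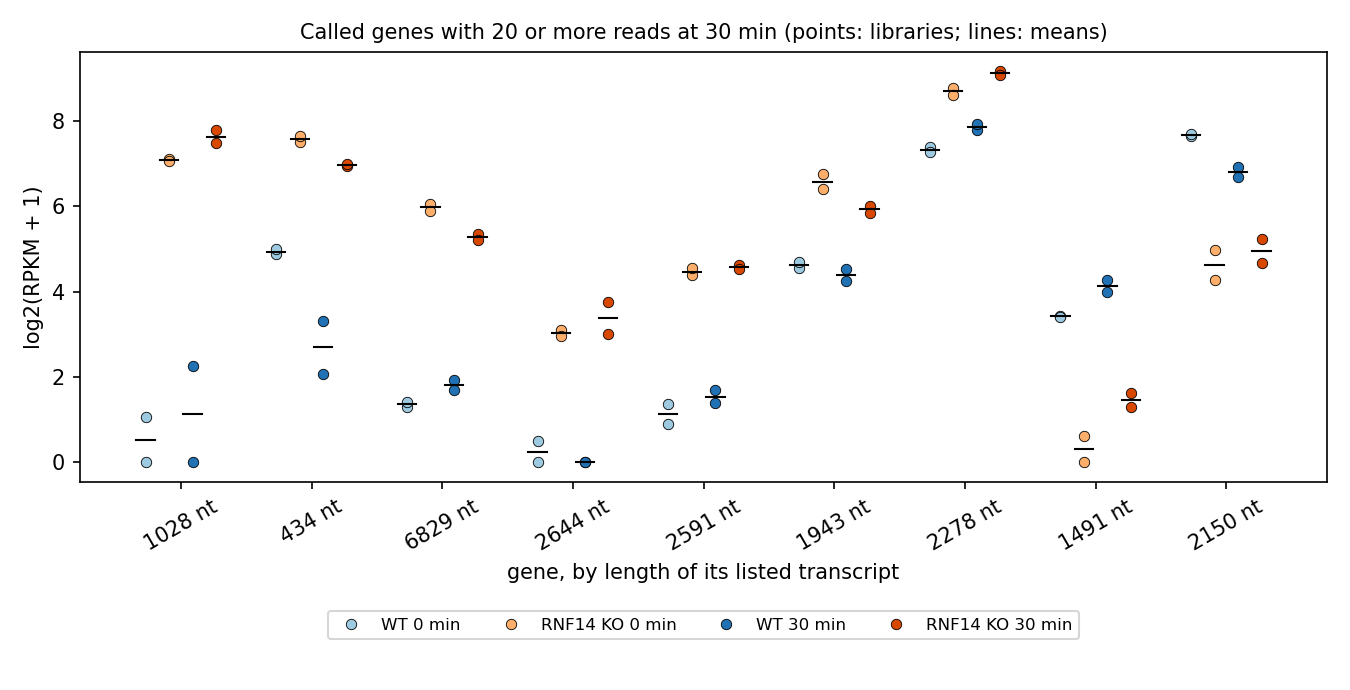
Each point is the log2(RPKM + 1) of 1 library, coloured by genotype and time, and each line is the mean of the 2 libraries of a group, for the 9 called genes with 20 or more reads at 30 min. In all 9 the groups at 30 min do not overlap, and the groups at 0 min are ordered the same way without overlap.

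Of the genes that were lower in the knockout, 2 were well read. ENSG00000181322, of 2150 nt, stood at 101 and 119 RPKM in wild type at 30 min and at 24.4 and 36.5 RPKM in the knockout, on 156 and 132 against 17 and 36 reads. The share of reads was 3.45 times as large in wild type, with a counting interval from 2.57 to 4.71. The lower wild-type library was still well above the higher knockout library. The log2 difference of -1.84 (SE 0.27, limma adjusted p = 0.0344) was the only lower call that voom also made. With 1 library left out it was called in 3 of 8 fits, those without either knockout library at 0 min or without knockout 30 min replicate 2, and the adjusted p reached 0.376 over all alternatives.

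ENSG00000082482, of 1491 nt, had 16 and 14 reads in wild type and 1 read in each knockout library. In RPKM these were 14.9 and 18.2 against 2.07 and 1.46. Few reads remained in the knockout, but both libraries held 1, so the gene was not at 0. The share was 9.52 times as large in wild type, with a counting interval from 2.42 to 82.2. The log2 difference was -2.67 (SE 0.39, limma adjusted p = 0.0344). It was called in 2 of the 8 fits without 1 library, those without either knockout library at 0 min, and voom gave an adjusted p of 0.234.

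The 6 thinly read calls rested on a handful of reads each. A gene of 51 nt had 0 reads in both wild-type libraries and 2 in each knockout library, which on so short a transcript came to 121 and 85.4 RPKM. Set against the floor of 3 reads its share was at least 2.10-fold higher, and the exact interval of the ratio began at 1.04, although the fitted log2 difference of 6.68 was the largest of all (SE 0.33, limma adjusted p = 1.64e-05). The replicates of each group had equal read counts, and voom on the reads gave an adjusted p of 0.519. A gene of 252 nt had 1 read in each wild-type library and 5 and 4 in the knockout, and a gene of 1016 nt had none in wild type and 5 in each knockout library, at least 5.25-fold higher against the floor, with an exact interval that began at 3.53.

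Lower in the knockout by the same test were genes of 208, 209 and 1539 nt. They had 5 and 2, 2 and 2, and 8 and 4 reads in the wild-type libraries and were listed at 0 in both knockout libraries. Against the floor, the shares of the 208 nt and 1539 nt genes were at least 1.48-fold and 2.54-fold lower. The exact interval of the 1539 nt gene began at 1.76, while that of the 208 nt gene began at 0.915 and so included no difference. The 209 nt gene allows no fold. All 6 thinly read genes missed the threshold with voom, with adjusted p between 0.144 and 0.776. The 51 nt gene was called in 8 of 8 fits that left out 1 library. The 1539 nt gene was called in 1, the fit without knockout 30 min replicate 2. The 1016 nt gene was lost without any one of the 4 libraries at 30 min. The 252 nt and 208 nt genes were lost without wild type 30 min replicate 1 or 2 or knockout 30 min replicate 1, and the 209 nt gene without wild type 30 min replicate 1 or 2.

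The libraries at 0 min took no part in choosing these genes by their difference at 30 min, though they share the fitted spread. All 9 well-read genes had the same sign at 0 min, and their groups did not overlap there either. Over all 11931 genes 46.4% had the same sign at both times, with r = 0.0822 and Spearman's rho = -0.0278 across genes. These shares were not recomputed under other scalings. At 200 or more reads at each time (1959 genes) the share was 37.5%, rho was -0.202 and r was -0.0875. Leaving out 1 library gave rho from -0.284, without knockout 30 min replicate 2, to -0.0246, without knockout 30 min replicate 1. Without the same libraries r was -0.198 and 0.0883, so its sign depended on the library left out. Of all tested genes, 21.3% were higher and 29.1% lower in the knockout at 0 min without overlap. At 0 min 22 genes (0.184%) passed the threshold (limma-trend), 17 higher and 5 lower. With voom 821 passed at 0 min, 339 higher and 482 lower, and without a filter 38 passed, 17 higher and 21 lower, so the balance of directions turned with the method. By limma-trend 8 of the 9 well-read genes were among the 22. These 8 make up 53.3% of the calls at 30 min and 36.4% of those at 0 min. Both tests used the same fitted spread of each gene, so this overlap of calls is not independent support. With only the libraries at 0 min in the fit, 0 genes passed there. The number called at 0 min was 3 without wild type 0 min replicate 1 or without any one of the 4 knockout libraries, and 10 without wild type 0 min replicate 2 or either wild-type library at 30 min. Of the 6 thinly read genes, 3 had the same sign at 0 min and 0 were called there.

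The fitted size of the difference at 0 min relative to 30 min varied among the 9 genes, but none of the 9 passed the test of interaction. The 6829 nt gene stood at 1.48 and 1.66 RPKM in wild type at 0 min and at 65.7 and 58.3 RPKM in the knockout. Its log2 difference was 4.61 against 3.46 at 30 min, with an interaction of -1.15 (SE 0.39, limma adjusted p = 0.268). The 1028 nt gene stood at 1.09 and 0 against 136 and 132 RPKM, so its difference was 6.55 at 0 min and 6.50 at 30 min. Both genes showed the high level in all 4 knockout libraries and the low level in all 4 wild-type libraries.

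The 434 nt gene was read at 28.5 and 30.8 RPKM in wild type at 0 min, more than in either wild-type library at 30 min, and at 180 and 198 RPKM in the knockout. Its difference was 2.63 at 0 min and 4.26 at 30 min, and the interaction of genotype and time gave an unadjusted p of 0.00620 and a limma adjusted p of 0.25. The 2150 nt gene stood at 199 and 205 RPKM in wild type at 0 min and at 18.4 and 30.5 RPKM in the knockout. Its difference was -3.04 at 0 min and -1.84 at 30 min, with an interaction of 1.20 (SE 0.39, limma adjusted p = 0.25). Neither change between times passed the threshold after adjustment.

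The interaction, which tests whether the genotype difference changed between times, called 1 of 11931 genes (0.00838%), the thinly read gene of 51 nt, while 1591 genes had an unadjusted p below 0.05. With voom 88 genes were called in the interaction, and the 51 nt gene was not among them. A gene that passed at 1 time and not at the other is therefore not shown to differ between times by the main test.

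**Figure D3:**
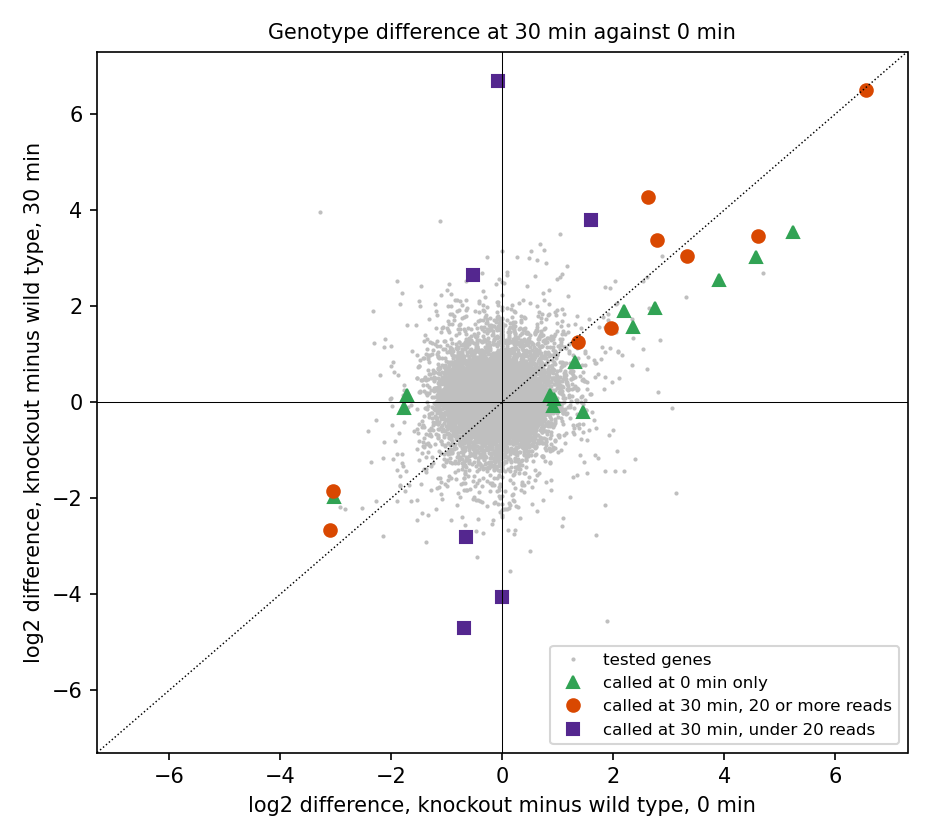
Each point is 1 of 11931 genes, with the log2 difference between knockout and wild type at 0 min and at 30 min, both on log2(RPKM + 1), and the dotted line marks equal differences. The 9 circles, called at 30 min with 20 or more reads, lie in the quadrants of equal sign, whereas the 6 squares with fewer reads have differences at 0 min between -0.69 and 1.60.

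Of the 14 genes called at 0 min and not at 30 min, 11 had the same sign at 30 min. In 8 of these the difference at 30 min lay beyond 0.25, with log2 differences from 0.83 to 3.54 for the 7 higher ones and of -1.98 for the lower one. A gene of 636 nt stood at 6.57 and 3.04 RPKM in wild type at 30 min and at 53.4 and 75.3 RPKM in the knockout (log2 difference 3.54, limma adjusted p = 0.0632), after 0 and 3.24 against 83.6 and 70.7 RPKM at 0 min. A gene of 2405 nt stood at 0.579 and 1.61 RPKM in wild type at 30 min and at 6.42 and 18.1 in the knockout. In both genes each knockout library was above each wild-type library at both times, but the test at 30 min did not pass.

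The other 6 genes called only at 0 min, 3 of them with the same sign at 30 min, lay within 0.25 of 0 on the log2 scale at 30 min, a limit set after the values were seen. A gene of 1687 nt stood at 2160 and 2030 RPKM in wild type at 30 min and at 2000 and 2400 RPKM in the knockout, while at 0 min it stood at 857 and 981 against 1800 and 1680 RPKM. Its groups overlapped at 30 min and were far apart at 0 min. A gene of 2256 nt stood at 1220 and 1180 against 1270 and 1400 RPKM at 30 min and at 580 and 558 against 1060 and 1010 RPKM at 0 min. A gene of 2032 nt was at 99.4 and 106 RPKM in wild type and 83.6 and 93.2 RPKM in the knockout at 30 min, and at 48.1 and 64.8 against 164 and 147 RPKM at 0 min. Genes of 1954 and 3896 nt were lower in the knockout at 0 min, with log2 differences of -1.72 and -1.77, and stood at 0.14 and -0.13 at 30 min. The interaction of these 6 genes had unadjusted p between 0.000123 and 0.00189 and limma adjusted p between 0.209 and 0.238, so none passed after adjustment.

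Next in order of p at 30 min, among genes with 20 or more reads and groups that do not overlap, came 10 genes higher and 15 lower in the knockout. Groups without overlap were common at this depth, with 20.5% of all genes higher and 18.2% lower in the knockout by that measure. None of the 25 passed the threshold, so their values are given as a description. All 10 higher ones had the same sign at 0 min, against 46.4% of all genes, and 4 were called there.

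Of those 10, a gene of 412 nt was the most read. It stood at 494 and 498 RPKM in wild type at 30 min and at 877 and 888 in the knockout, 0.83 higher on the log2 scale (SE 0.14, limma adjusted p = 0.0748). Replicates agreed closely in both groups, and at 0 min the values were 237 and 290 against 616 and 683 RPKM. A gene of 1701 nt stood at 7.37 and 1.14 RPKM in wild type and at 32.7 and 49.9 RPKM in the knockout at 30 min, but at only 0.660 to 2.26 RPKM in the 4 libraries at 0 min. A gene of 3946 nt stood at 1.41 and 1.47 against 9.39 and 15.5 RPKM at 30 min, and at 0.854 to 2.04 RPKM at 0 min. Both had low levels in both genotypes at 0 min. In the 1701 nt gene wild type replicate 1 stood higher at 30 min than at 0 min, at 7.37 RPKM. In both genes the knockout libraries stood higher at 30 min, with limma adjusted p = 0.0748 for the genotypes at 30 min and 0.25 for the interaction. With voom 6 of the 25 passed at 30 min, these 2 genes among them, with adjusted p of 0.00513 and 0.0216.

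The 15 lower genes had log2 differences from -2.36 to -0.81 and limma adjusted p from 0.0748 to 0.157, and 12 had the same sign at 0 min, though 0 were called there. A gene of 800 nt stood at 195 and 162 RPKM in wild type at 30 min and at 46.3 and 95.3 RPKM in the knockout. At 0 min its 4 libraries lay between 241 and 270 RPKM, with no separation of genotypes. The interaction was -1.32 on the log2 scale (unadjusted p = 0.00712, limma adjusted p = 0.25). The difference at 30 min was -1.41, and it was -0.89 without knockout 30 min replicate 1 and -1.92 without knockout 30 min replicate 2. A gene of 1117 nt stood at 24.9 and 24.3 RPKM in wild type and at 11.1 and 7.80 in the knockout at 30 min. At 0 min it stood at 27.1 and 28.6 against 23.1 and 25.3 RPKM, so wild type was already higher there without overlap. The log2 difference was -0.20 at 0 min and -1.31 at 30 min.

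Other lower genes were further apart at 0 min. A gene of 2400 nt stood at 30.2 and 31.5 RPKM in wild type and at 12.9 and 4.54 RPKM in the knockout at 30 min, after 48.2 and 45.0 against 17.8 and 9.63 RPKM at 0 min. A gene of 1719 nt stood at 9.72 and 9.01 against 1.80 and 2.53 RPKM at 30 min, and at 15.7 and 13.8 against 3.75 and 2.99 RPKM at 0 min. In these 2 genes every wild-type library lay above every knockout library at both times.

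**Figure D4:**
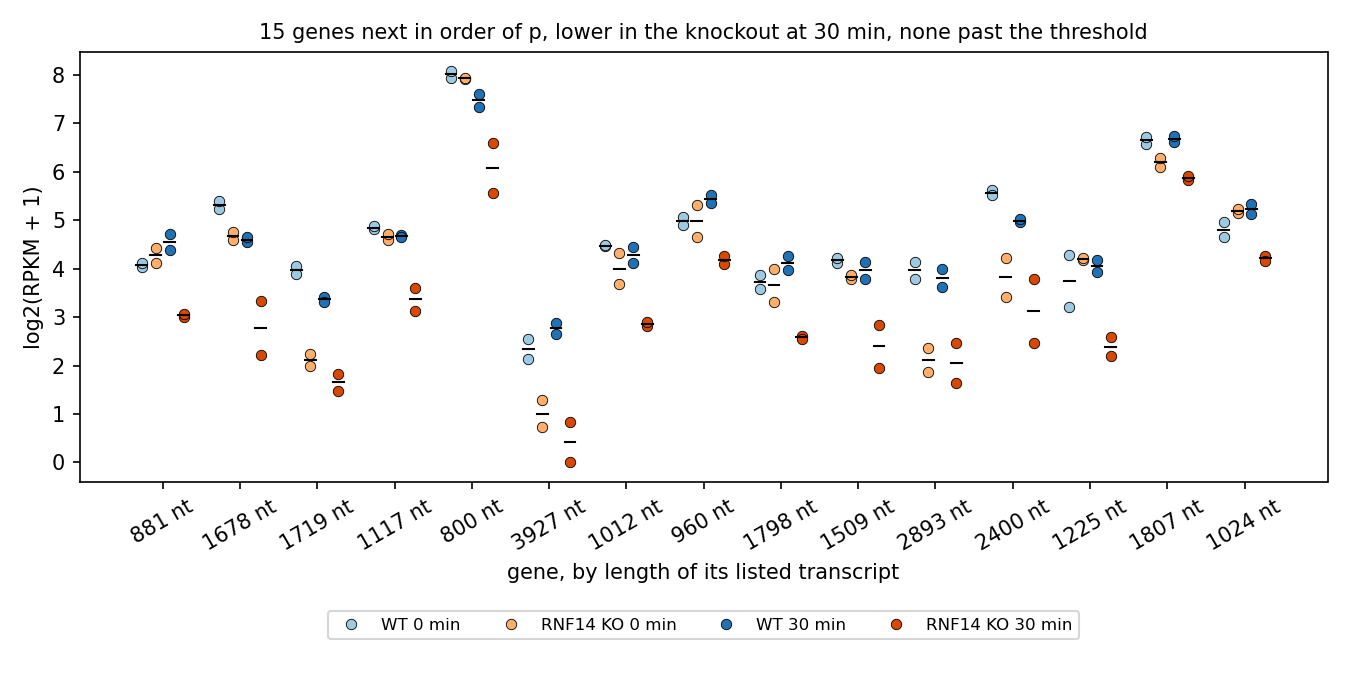
Each point is the log2(RPKM + 1) of 1 library, coloured by genotype and time, and each line is a group mean, for the 15 genes next in order of p that were lower in the knockout at 30 min. The knockout libraries at 30 min lie lowest in most genes, whereas at 0 min the genotypes lie close together in some, such as the 800 nt gene, and apart in others, such as the 2400 nt gene.

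The genes that took most reads differed little. The 20 most read genes held 17.9% and 18.2% of reads in the wild-type libraries at 30 min and 18.1% and 17.7% in the knockout libraries. Their log2 differences lay between -0.21 and 0.19 and 0 were called. The most read gene, of 4298 nt, differed by 0.02 (SE 0.11, limma adjusted p = 0.964). Among the 100 most read genes 94 lay within 0.5 of 0, and 1 was called, the 2278 nt gene described above.

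The spread of differences narrowed with the reads of a gene. For the 931 genes with fewer than 10 reads at 30 min the median size of the log2 difference was 0.88, and the replicates themselves differed by a median of 0.72 in wild type and 1.22 in the knockout. For the 528 genes with 500 or more reads these medians were 0.19, 0.13 and 0.17. The genotype difference is between means of 2 libraries and the replicate difference between single libraries, so these medians cannot be set directly against each other. The well-read class leaned downwards, with a median log2 difference of -0.09, and 35.4% of its genes were lower in the knockout without overlap against 16.5% higher. Only 1 of the 528 was called, and another scaling moved the median of all 11931 genes from 0.02 to 0.07 (TPM) or -0.05 (median centring).

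By transcript length the genotypes were also close at 30 min. Transcripts of up to 600 nt took 13.8% and 12.3% of reads in wild type and 12.2% and 12.3% in the knockout. Transcripts over 2000 and up to 4000 nt took 25.6% and 25.7% against 26.8% and 26.5%, so here both knockout libraries lay above both wild-type libraries, by a small margin. An exact permutation test of 2 libraries against 2 cannot give a two-sided p below 0.333, so no test was made. The median log2 difference ran from -0.13 for genes of up to 600 nt to 0.05 for genes over 8000 nt. Of the 15 called genes 5 were among the 335 genes of up to 600 nt, and 4 of those 5 were thinly read.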

How the data were processed

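Ribosome footprints of HAP1 cells were deposited as a table of RPKM per gene, with 1 listed transcript length each; per the submitters' processing notes the authors used cutadapt, STAR 2.7.10a and the hg38 build. The sources used here do not give the annotation or the counting rules. RPKM times length was a whole multiple of 1 read for 100% of values above 0 (tolerance 0.05 of a read), which gave reads per gene and depth. The main test was limma 3.58.1 (lmFit and eBayes with trend) on log2(RPKM + 1), a pseudocount of 1, in 1 fit of all 8 libraries with 4 group means, two-sided, with Benjamini-Hochberg adjustment over 11931 genes and a threshold of 0.05. A fold on this scale understates the change of low genes. The code was checked on simulated data. Counting intervals are exact at 95% (Clopper-Pearson), and floors use 3 reads over the group; both cover counting error only. The labels call the replicates biological but do not say what separates them, and the p-values measure only the spread between these libraries.

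Genes and lists were chosen with earlier results of these data known. Described genes were all those past the threshold, then the next by unadjusted p to 20 in each direction, among genes with 20 or more reads and groups without overlap, and the most read genes. The rule also held genes chosen by name, cell type markers and gene lists; none could be matched to the IDs, so they were not used here, and for the same reason no sequence is shown. Alternatives were another pseudocount, filter, scaling, prior, sample set, count model (limma voom), thinning, a replicate block and leaving out each library. Same-numbered libraries were not paired in the main fit.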

Additional observations from a re-analysis of the deposited data

Results flagged for a closer look

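The main test called the genotype difference of the 51 nt gene as different between the times, on a handful of reads. The difference at 30 min minus that at 0 min was 6.76 on the log2 scale (SE 0.47, limma adjusted p = 0.000457), the only interaction among 11931 genes that passed. At 0 min it had 1 and 2 reads in wild type and 2 and 1 in the knockout, and at 30 min 0 and 0 against 2 and 2. The interaction was not called by voom on the reads, after thinning to equal depth, or without RNF14 KO 30 min replicate 1, and the filter at a mean of 10 reads left the gene out.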

How the results depend on the processing

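Depth limits the comparison: the shallowest library had 323946 reads and the median gene 11 to 24 reads per library at 30 min. The count at 30 min was 15 and came to 2 without a filter, 33 without a trend in the prior (22 higher and 11 lower), 6 with only the libraries at the time compared, 6 after thinning and 28 among genes with a mean of 10 or more reads, an alternative chosen after seeing the data. Leaving out 1 library gave 5 to 108 calls. The count at 0 min was 22 and came to 9 with a pseudocount of 0.1, 38 without a filter, 14 with median centring, 3 without a trend, 0 with only the libraries at that time (limma; 1858 genes had an unadjusted p under 0.05), 821 with voom, 9 after thinning and 50 with the 10-read filter, and 3 to 10 without 1 library. The interaction called 1 gene, and 28 without a filter, 2 without a trend, 88 with voom, 2 after thinning and 0 with the 10-read filter (limma; 1365 unadjusted), and 0 to 2 without 1 library (limma; 1518 unadjusted where 0). The causes were not tested. TPM and median centring moved the median log2 difference of all genes at 0 min from -0.07 to -0.19 and 0.07, and that of the interaction from 0.10 to 0.27 and -0.11. Over the single genes and their alternatives the verdict stayed the same 676 times, was lost 111 times and was gained 33 times, and no direction was reversed.

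A replicate block gave 13 calls at 30 min, 12 of them among the 15, 18 at 0 min and 1 in the interaction. Deviations of same-numbered libraries correlated at -0.0623 to 0.0647, so the numbers were not taken as pairs. The alternatives planned for gene lists were not run, because no gene ID could be matched to a name.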

Other observations

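Genes with no read in one genotype at 30 min and 5 or more reads in each library of the other were few. There were 2 with reads only in the knockout, both described above (1016 and 2644 nt), and 2 with reads only in wild type, with 15 and 18 reads over both libraries and 0 called. All 4 had the same sign at 0 min.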
